A study of Mus musculus with 44 samples.

Results

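The annexins are a family of proteins that bind acidic membrane phospholipids when calcium is present, and they were followed here in cultured mouse calvarial osteoblasts, the bone-forming cells of the skull vault. The members are 9 annexin genes (Anxa1 to Anxa8 and Anxa11), chosen by symbol, and all probe sets listing one of them on the Affymetrix array types A, B and C were taken. That gave 20 of 36701 probe sets, 12 on A, 1 on B and 7 on C. Of these, 19 named 1 gene and together covered 8 annexin genes, of 15964 genes named that way on the arrays. The probe set listing Anxa11, 102815_at, also lists Gm2274 and Gm2260, so it is called by its ID and stands for no single gene. The family was selected on the lower Anxa8 signal at day 17, a measured value already known, so differences between days are given as description, with no test.

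As background, each annexin has a core of repeats that bind calcium and membrane and a short amino end of its own, which often docks an S100 protein. In bone and growth plate cartilage, Anxa5, Anxa6 and Anxa2 are known components of matrix vesicles, the small membrane sacs that cells shed into the matrix and in which the first mineral forms, and Anxa5 is thought to carry calcium into them. Other members are known elsewhere: Anxa1 as a glucocorticoid-induced protein that acts through formyl peptide receptors, Anxa2 as a surface receptor for plasminogen and its activator, and Anxa8 mainly in epithelia.

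The day 17 cultures carried the reporter pOBCol2.3GFP and, from day 7 on, received ascorbic acid and bGP (per the labels). The day 7 cultures carried pOBCol3.6GFP and received no additions. All groups came from mice labelled as 7 day new borns, were grown in DMEM with fetal calf serum, and were sampled as GFP-positive and GFP-negative cells after FACS and as unsorted cells. Both reporters are driven by fragments of the rat type I collagen promoter, the shorter active in differentiated osteoblasts and the longer already in their precursors, so GFP-positive does not mean the same cell on the 2 days. Day, reporter and additions changed together, and each experiment lies within 1 day, so they cannot be told apart.

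Each of the 6 groups held 3 RNA samples, named by experiment: Exp100, Exp105 and Exp106 at day 17 and Exp99, Exp101 and Exp103 at day 7. Array A was run for all 18, while B and C were run for the 12 from FACS and for 1 unsorted sample. Nothing beyond the experiment names says that these were separate cultures, and a p-value here covers only the spread among them, which may be technical. The number of arrays limits the precision. The arrays of Exp106 stood apart: their mean correlation with the other arrays was 0.839 on A, against 0.943 among the others, and results that rest on Exp106 are given with and without it. The labels name calvaria, where the others name cell culture, as the source of all 3 RNAs of Exp106 and of Exp101 GFP-negative and Exp105 unsorted. The summed signal of 6 osteoblast marker genes on array A was 319441 to 347278 (unsorted), 323005 to 372968 (GFP-positive) and 260850 to 278211 (GFP-negative) at day 17, against 151296 to 217002, 97216 to 164710 and 82451 to 209187 in the same fractions at day 7. Col1a1 and Col1a2 made up most of each osteoblast sum, which says little of its other genes Alpl, Ibsp, Dmp1 and Phex. Macrophage markers (16 genes) summed to 176844 to 230184 in unsorted cells at day 17, the highest of any group. Values below are intensities after quantile normalisation within an array type, in arbitrary units. They were compared between samples and never between probe sets. In such bulk RNA, fewer cells of a type and less RNA per cell cannot be told apart.

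The RefSeq promoter table (GRCm38.p6) held 9 promoters for 7 of these genes (Anxa1, Anxa2, Anxa4, Anxa5, Anxa7, Anxa8 and Anxa11), each running from 250 bases before the transcript start to 50 after it. Those of Anxa8 and Anxa1 are shown because their signals were lower at day 17 in the sorted GFP-positive cells. Those of Anxa2 and Anxa5, matrix vesicle annexins whose probe sets on array A differed little between days outside Exp106, are shown too. They lie at chr14:34085729-34086028 (plus strand, Anxa8), chr19:20390622-20390921 (minus strand, Anxa1), chr9:69453433-69453732 (plus strand, Anxa2) and chr3:36475838-36476137 (minus strand, Anxa5). Each is written 5′ to 3′ along the gene, with matches to any of 4 motifs, searched on both strands, in capitals. The TATA box was searched as TATAAA. The GC box was searched as GGGCGG. The AP-1 site was searched as TGANTCA. The Runx site was searched as ACCACA. No match overlaps another in the printed sequences.
Anxa8: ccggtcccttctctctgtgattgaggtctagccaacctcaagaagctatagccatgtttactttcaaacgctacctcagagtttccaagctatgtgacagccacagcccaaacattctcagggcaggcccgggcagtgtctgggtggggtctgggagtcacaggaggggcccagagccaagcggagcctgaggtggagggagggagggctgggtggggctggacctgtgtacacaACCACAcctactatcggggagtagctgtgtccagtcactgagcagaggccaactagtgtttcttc
Anxa1: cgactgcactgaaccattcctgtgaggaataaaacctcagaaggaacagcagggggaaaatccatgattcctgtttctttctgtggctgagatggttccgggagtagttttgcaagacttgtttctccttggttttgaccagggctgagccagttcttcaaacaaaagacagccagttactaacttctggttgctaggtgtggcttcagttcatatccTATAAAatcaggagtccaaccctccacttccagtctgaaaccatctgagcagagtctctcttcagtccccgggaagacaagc
Anxa2: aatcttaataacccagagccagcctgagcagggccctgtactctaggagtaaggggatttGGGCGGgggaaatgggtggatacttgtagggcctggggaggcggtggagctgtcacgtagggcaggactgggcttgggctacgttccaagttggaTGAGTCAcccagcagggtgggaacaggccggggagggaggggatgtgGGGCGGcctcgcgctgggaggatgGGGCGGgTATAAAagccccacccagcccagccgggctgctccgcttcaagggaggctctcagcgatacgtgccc
Anxa5: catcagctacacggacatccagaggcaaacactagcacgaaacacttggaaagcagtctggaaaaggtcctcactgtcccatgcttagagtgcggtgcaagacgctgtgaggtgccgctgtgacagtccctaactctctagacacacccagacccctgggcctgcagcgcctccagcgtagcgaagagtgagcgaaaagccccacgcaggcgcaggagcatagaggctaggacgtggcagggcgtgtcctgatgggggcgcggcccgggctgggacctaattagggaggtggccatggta

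Anxa8 holds 1 of these matches, the Runx letters beginning 15 bases before the start. The TATA box began 32 bases before the start in Anxa1 and 17 before it in Anxa2, and Anxa2 also holds the GC box at 3 places and the AP-1 letters 95 bases before the start. Anxa5 holds none of the 4. Among all 32851 promoters of the table, 13.6% hold the TATA box, 35.7% the GC box, 7.8% the AP-1 and 16.8% the Runx letters; of the 9 annexin promoters 2, 5, 1 and 1 do. These are letter matches in a window and describe no binding.

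Anxa8 and Anxa3 were the annexins with much lower signals at day 17 in all 3 fractions. The Anxa8 probe set 97529_at read 436, 761 and 436 in GFP-positive cells at day 17 (Exp100, Exp105 and Exp106), against 7544, 2647 and 2547 in GFP-positive cells at day 7 (Exp99, Exp101 and Exp103). In GFP-negative cells it read 288, 328 and 1022 at day 17, against 5654, 2499 and 2834 at day 7. In unsorted cells it read 374, 550 and 71.1 at day 17, against 4995, 2165 and 2639 at day 7. In each fraction every day 17 sample lay below every day 7 sample. At day 7 Exp99 was the highest in all 3 fractions, while at day 17 Exp106 was the highest in GFP-negative and the lowest in unsorted cells. The differences, day 17 minus day 7 on the log2(intensity + 32) scale, were -2.75 ± 0.54 in GFP-positive, -2.80 ± 0.54 in GFP-negative and -3.41 ± 0.63 in unsorted cells (SE), or 6.70-fold, 6.98-fold and 10.7-fold lower at day 17. Without Exp106 they were -2.65 ± 0.48, -3.41 ± 0.48 and -2.71 ± 0.48. Group means were 544 ± 188 in GFP-positive, 546 ± 413 in GFP-negative and 332 ± 242 in unsorted cells at day 17, and 4246 ± 2857, 3662 ± 1733 and 3266 ± 1516 at day 7 (SD, n = 3 each). Within a day, the 3 fractions lay within each other's spread. The probe set was above the array median on 8 of the 12 sorted arrays, so part of the day 17 signal was low.

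Anxa8 is known from epithelia, so the epithelial markers on array A are given beside it. Of 8, Cdh1 lay above the array median on all 18 arrays and Krt8 on 1, and the other markers on none. Their summed signal was 2552 to 4469 in GFP-positive, 2446 to 4774 in GFP-negative and 1773 to 4543 in unsorted cells at day 17, against 1964 to 2168, 2110 to 2262 and 1784 to 1995 at day 7. Cdh1 made up most of the sum in every sample, so the sum says little of the other markers. Krt19 ran the other way in GFP-positive cells, with 17.5, 21.5 and 41.3 at day 17 against 143, 252 and 107 at day 7. It did so in GFP-negative cells too, with 17.8, 27.5 and 19.5 at day 17 against 35.0, 142 and 148 at day 7. Krt14 was lower at day 17 in unsorted cells, with 54.8, 35.6 and 36.1 against 59.8, 134 and 158 at day 7, but not in GFP-negative cells. Exp106 had the highest sum in each day 17 fraction, and the unsorted sample of Exp100 had the lowest of all 18.

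Anxa3, which is known from neutrophils, was the second annexin with a lower signal in every day 17 sample. Its probe set 101393_at read 780, 1704 and 844 in GFP-positive cells at day 17, against 10281, 6471 and 6675 at day 7. In GFP-negative cells it read 2134, 2065 and 773 at day 17, against 8183, 7587 and 7291 at day 7. In unsorted cells it read 2545, 3799 and 961 at day 17, against 10086, 5267 and 6109 at day 7. No fraction had overlapping days, and GFP-positive cells had the lowest day 17 mean. The differences were -2.84 ± 0.40 in GFP-positive, -2.32 ± 0.40 in GFP-negative and -1.69 ± 0.47 in unsorted cells, or 7.14-fold, 5.00-fold and 3.23-fold lower at day 17. Without Exp106 they were -2.70 ± 0.30, -1.85 ± 0.30 and -1.13 ± 0.33. The means were 1109 ± 516, 1657 ± 767 and 2435 ± 1422 in GFP-positive, GFP-negative and unsorted cells at day 17, and 7809 ± 2144, 7687 ± 454 and 7154 ± 2574 at day 7 (SD, n = 3 each). Over the 12 sorted samples the log2 values of Anxa3 and Anxa8 correlated at r = 0.84, and at 0.90 over the 10 without Exp106. These points share their arrays and the split between days, so the value is a description.

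Markers of other cells also differed between days. Skeletal muscle markers (8 genes) summed to 8343 to 10888 in GFP-negative cells at day 17, against 15228 to 21779 at day 7, and in unsorted cells to 7728 to 10882 at day 17, against 14780 to 20171 at day 7. Actc1 was the largest part of each sum. Of 7 tested, Ckm alone went the other way, by 0.46 ± 0.44 in GFP-negative and 0.29 ± 0.46 in unsorted cells (0.02 and -0.25 without Exp106). Mylpf and Tnni1 in GFP-negative cells of Exp106 also lay above every GFP-negative sample of day 7. Smooth muscle markers (5 genes) summed to 11355 to 12150 in GFP-positive cells at day 17, against 51603 to 57245 at day 7. Des of this list went the other way, with 465, 395 and 944 at day 17 against 187, 211 and 258 at day 7. Macrophage markers summed to 22971 to 86951 in GFP-positive cells at day 17, against 6538 to 7528 at day 7. The part of these in the day differences of Anxa8, Anxa3 and the other annexins was not tested.

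**Figure D1:**
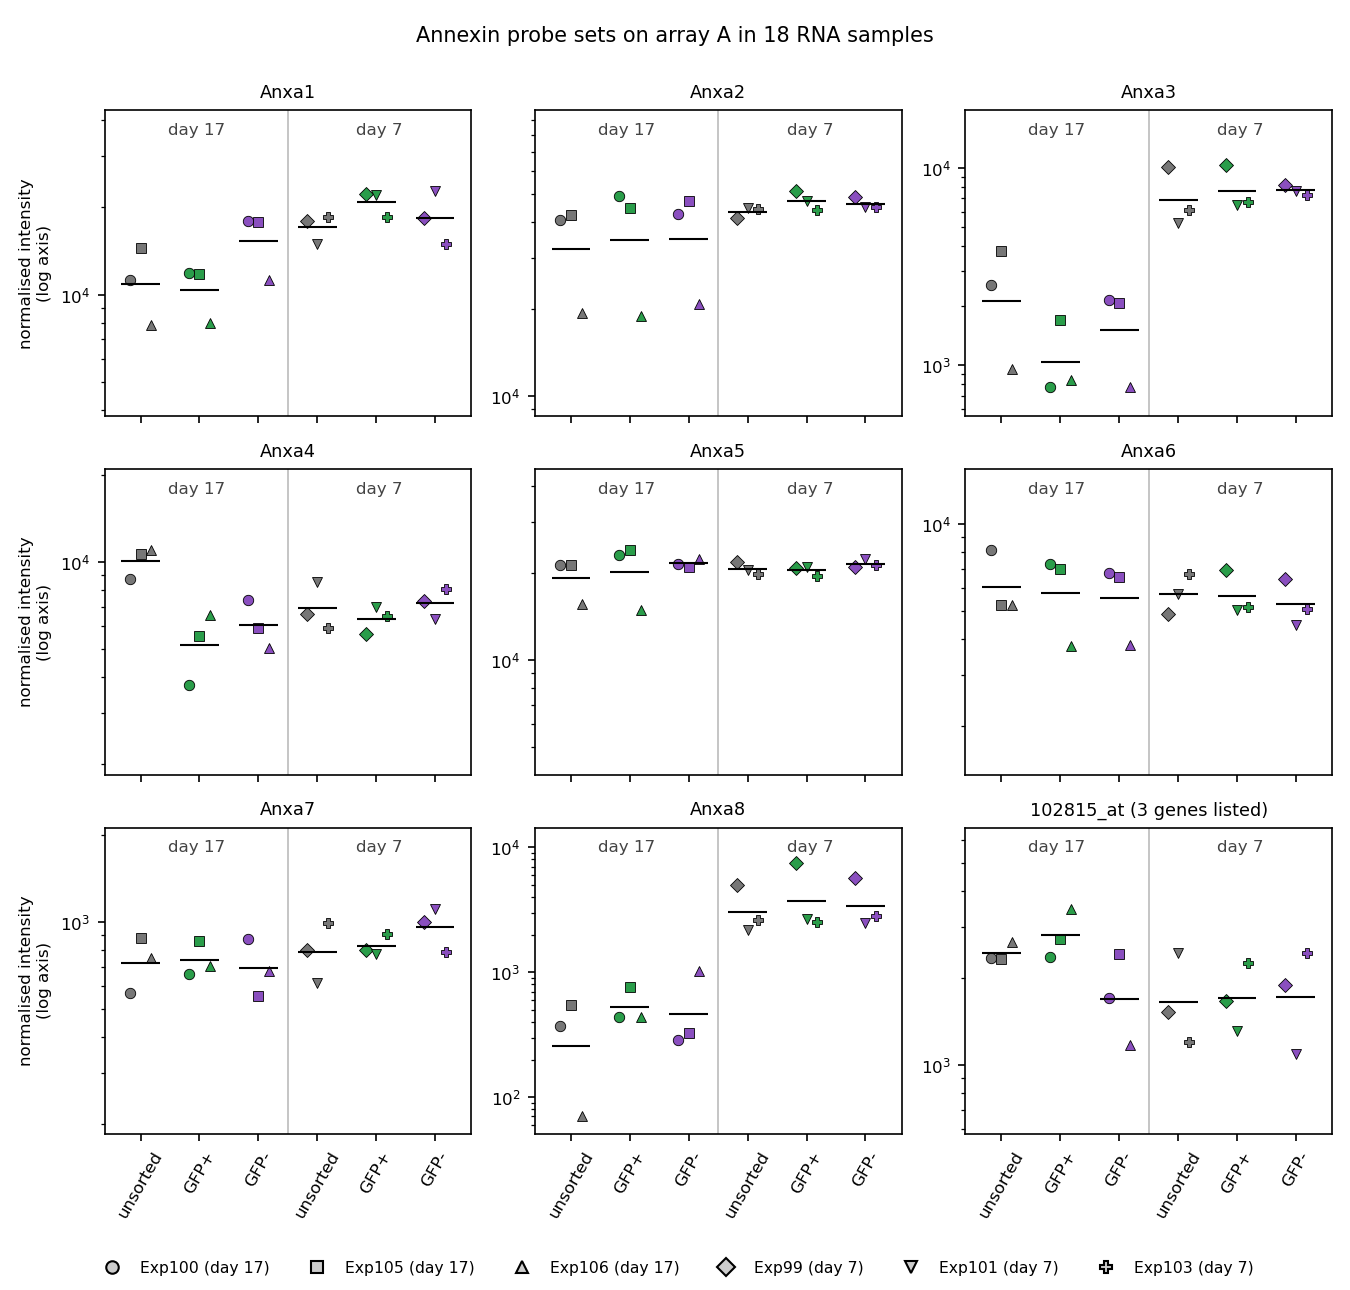
Normalised intensity (log axis, arbitrary units) of the probe set representing each of 8 annexins and of 102815_at in 18 RNA samples, by day and fraction. Symbols mark experiments and bars the mean of the log2 values. Anxa8 and Anxa3 lie lower in every day 17 sample than in any day 7 sample of the same fraction, while in Anxa2 the 3 Exp106 samples (triangles) lie apart.

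Anxa1 had lower signals at day 17 without overlap in GFP-positive and unsorted cells. Its probe set 93038_f_at read 11864, 11742 and 7982 in GFP-positive cells at day 17, against 22243, 22035 and 18486 at day 7. In GFP-negative cells it read 17922, 17782 and 11265 at day 17, against 18366, 22783 and 14982 at day 7. In unsorted cells it read 11241, 14436 and 7877 at day 17, against 17922, 14944 and 18486 at day 7. The days did not overlap in GFP-positive and unsorted cells and did in GFP-negative cells. The differences were -1.01 ± 0.24 in GFP-positive (2.01-fold lower at day 17), -0.27 ± 0.24 in GFP-negative and -0.65 ± 0.25 in unsorted cells. Without Exp106 they were -0.83 ± 0.17, -0.05 ± 0.17 and -0.42 ± 0.18. The other probe sets of Anxa1, 161703_f_at and 93037_i_at, followed it across the 12 sorted samples at r = 0.86 and 0.91, and their GFP-positive day differences were -0.64 ± 0.22 and -1.19 ± 0.52, and -0.64 ± 0.16 and -0.52 ± 0.19 without Exp106.

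Anxa2, which pairs with S100a10 at the membrane, gave different pictures with its 2 probe sets. On array A, 100569_at read 49030, 44535 and 18940 in GFP-positive cells at day 17, against 51152, 47246 and 43832 at day 7. In GFP-negative cells it read 42648, 47246 and 20901 at day 17, against 48606, 44934 and 44934 at day 7. In unsorted cells it read 40684, 42329 and 19450 at day 17, against 41285, 44535 and 44304 at day 7. All 3 low values are those of Exp106, and of the other 6 samples of day 17, 4 lay within the day 7 range of their fraction, with the GFP-negative and unsorted samples of Exp100 just below it. The differences of -0.45 ± 0.35, -0.41 ± 0.35 and -0.43 ± 0.36 in GFP-positive, GFP-negative and unsorted cells were -0.02 ± 0.11, -0.04 ± 0.11 and -0.06 ± 0.10 without it. The second Anxa2 probe set, 141050_at on array C, followed the first at r = 0.14 only. It read 1279, 3165 and 2451 in GFP-positive cells at day 17 against 2682, 4432 and 4588 at day 7, and 2234, 330 and 1189 in GFP-negative cells at day 17 against 3399, 3686 and 3533 at day 7. Its day differences were -0.81 ± 0.55 and -1.83 ± 0.55, and in GFP-negative cells all 3 experiments of day 17 lay below day 7, with Exp105 the lowest. The 2 probe sets of this gene thus disagreed, and the low signal of Exp106 alone holds for 100569_at only.

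The other matrix vesicle annexins had small day differences on array A. Anxa5 93083_at read 22982, 24007 and 14864 in GFP-positive cells at day 17, against 20814, 20901 and 19545 at day 7. In GFP-negative cells it read 21463, 20901 and 22243 at day 17, against 20901, 22319 and 21332 at day 7. In unsorted cells it read 21236, 21332 and 15644 at day 17, against 21790, 20438 and 19725 at day 7. Only the GFP-positive and unsorted samples of Exp106 lay well below the rest. The GFP-positive samples of Exp100 and Exp105 lay above every GFP-positive sample of day 7. The day differences were -0.02 ± 0.18, 0.00 ± 0.18 and -0.10 ± 0.17, and 0.21 ± 0.11, -0.02 ± 0.11 and 0.04 ± 0.10 without Exp106. Its array C probe sets 169667_f_at and 170501_r_at went against it across samples (r = -0.58 and -0.53), with GFP-positive day differences of -0.11 ± 0.28 and -0.08 ± 0.70.

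Anxa6, the annexin with a doubled core, read 7258, 7002 and 3806 in GFP-positive cells at day 17, against 6924, 5039 and 5192 at day 7 (94304_at). In GFP-negative cells it read 6786, 6565 and 3819 at day 17, against 6468, 4489 and 5105 at day 7. In unsorted cells it read 8153, 5263 and 5256 at day 17, against 4911, 5725 and 6738 at day 7. The days overlapped in every fraction, and Exp106 was the lowest sorted sample. The differences were 0.03 ± 0.31, 0.07 ± 0.31 and 0.08 ± 0.29 in GFP-positive, GFP-negative and unsorted cells, and 0.33 ± 0.19, 0.33 ± 0.19 and 0.19 ± 0.21 without Exp106.

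Anxa4, an annexin of secretory epithelia, and Anxa7, known for the fusion of secretory granules, had small day differences on array A. Anxa4 100584_at differed by -0.30 ± 0.24 in GFP-positive, -0.25 ± 0.24 in GFP-negative and 0.54 ± 0.22 in unsorted cells, where the days did not overlap. Its array C probe sets 167230_f_at and 168073_at gave -1.36 ± 0.54 and -0.69 ± 0.38 in GFP-positive cells, and in GFP-negative cells -1.11 ± 0.54 and -0.46 ± 0.38. In GFP-positive cells the first read 1488 in Exp106 against 9212 and 7010 in the other samples of day 17. Without Exp106 the values of these 2 were -0.53 ± 0.24 and -0.70 ± 0.37 in GFP-positive cells, and -0.63 ± 0.24 and -0.62 ± 0.37 in GFP-negative cells. Anxa7 93587_at read 662, 858 and 702 in GFP-positive cells at day 17 against 798, 776 and 904 at day 7, with differences of -0.16 ± 0.25, -0.45 ± 0.25 and -0.12 ± 0.25 in GFP-positive, GFP-negative and unsorted cells. Its array B probe set 116056_at ran the other way, 0.30 ± 0.28 in GFP-positive cells and 0.37 ± 0.28 in GFP-negative ones. The probe set 102815_at read 2354, 2728 and 3472 in GFP-positive cells at day 17 against 1668, 1314 and 2253 at day 7, a difference of 0.71 ± 0.35 without overlap, and -0.02 ± 0.35 in GFP-negative cells.

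Of the 17 annexin probe sets tested in sorted cells, 5 differed between days by more than 1 on the log2 scale in GFP-positive cells and 4 in GFP-negative ones, all lower at day 17, against 18.7% and 11.8% of all 22099 probe sets in either direction. Their median day difference was -0.45 in GFP-positive cells and -0.27 in GFP-negative ones, against -0.06 and -0.04 over all probe sets. In unsorted cells 2 of 11 on array A did so (Anxa8 and Anxa3), against 14.9% of 7455. The 5 in GFP-positive cells include 2 probe sets of Anxa1, 93038_f_at and 93037_i_at. Without Exp106, both of these and Anxa4 167230_f_at fell under 1 in size there, as did Anxa4 167230_f_at in GFP-negative cells. Over all probe sets, limma called 5.45% in GFP-positive, 0.538% in GFP-negative and 5.71% in unsorted cells between days at an adjusted p under 0.05. The day contrast was in view when the family was put together, so nothing is read from these shares. The 3 probe sets that passed no filter (Anxa4 168072_i_at, Anxa5 168693_at and Anxa7 161533_at) lay above the array median on 0, 1 and 0 of the 12 sorted arrays.

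**Figure D2:**
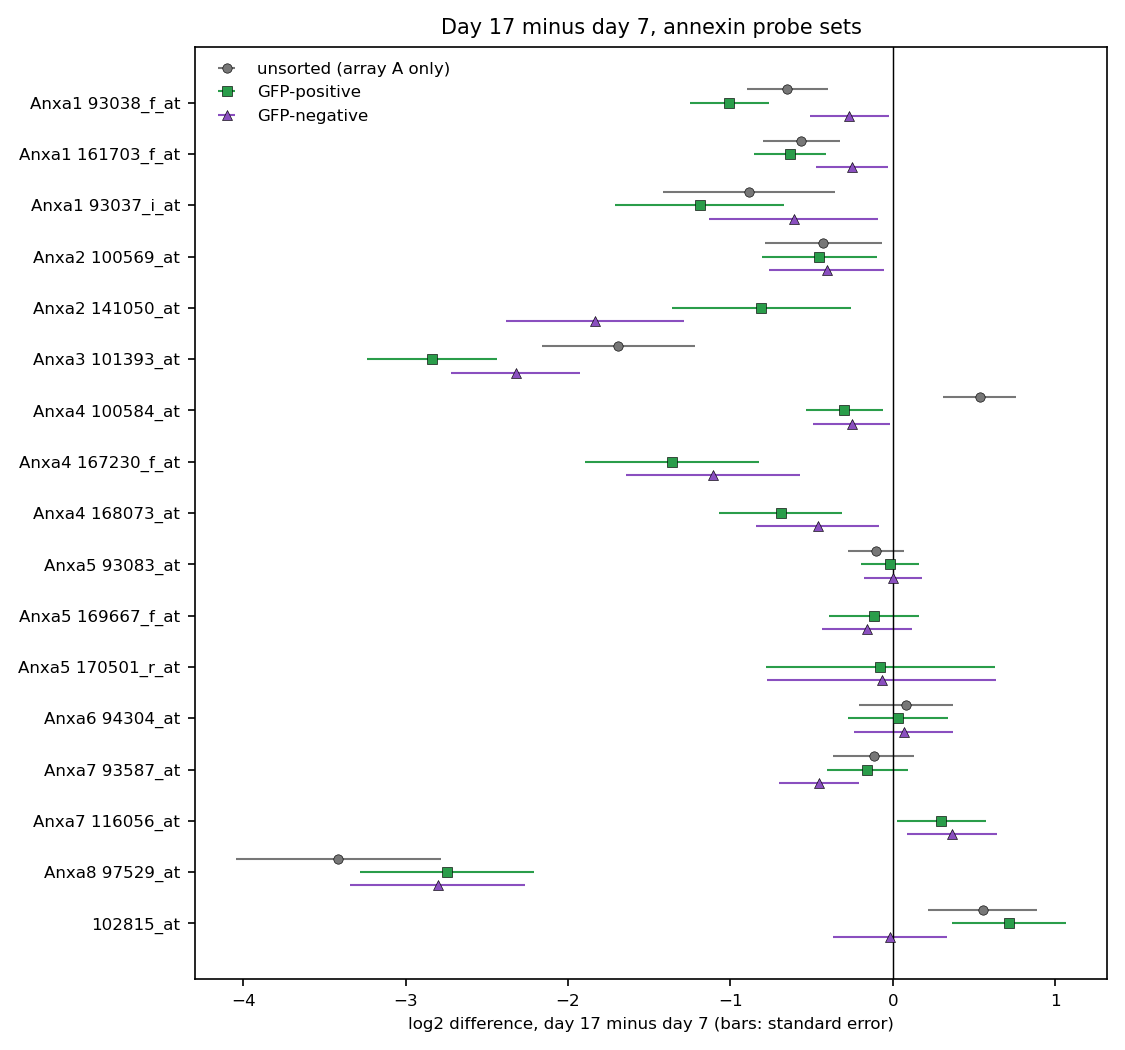
Log2 difference, day 17 minus day 7, of the 17 annexin probe sets tested in sorted cells (the 11 on array A also in unsorted cells), with standard errors. Anxa8 and Anxa3 lie furthest left in all fractions (to -3.41 for Anxa8 in unsorted cells), and the probe sets of Anxa5 and Anxa6 lie near 0.

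GFP-positive cells were compared with their GFP-negative neighbours within each day. At day 17 no annexin probe set (0 of 17) was called between GFP-positive and GFP-negative cells, against 1.48% of all 22099 probe sets (limma, adjusted p under 0.05). Their differences ran from -0.61 to 1.13, with a median of 0.04 against -0.01 over all probe sets, and 1 had an unadjusted p under 0.05. That was Anxa1 93038_f_at, lower in the GFP-positive cells of all 3 experiments: -0.56 ± 0.24 (adjusted p = 0.417 by limma). With experiment as a replicate block, which pairs the fractions of an experiment, its adjusted p was 0.022, so it passed there as 1 of 17 annexin probe sets, against 5.03% of all. Its other probe sets differed by -0.25 ± 0.22 and -0.61 ± 0.52 and were not called with or without the block, the second being lower in GFP-positive cells in every experiment (blocked adjusted p = 0.0806). Markers of other cells moved with this comparison. Smooth muscle markers summed to 11355 to 12150 in GFP-positive cells and 30117 to 46177 in GFP-negative ones at day 17. Acta2 and Tagln made up most of these sums. All 3 tested (Acta2, Tagln and Cnn1) were called lower. The untested Myh11 and Des, mostly below the array median, went the other way in every experiment. Myh11 read 45.9, 114 and 42.5 in GFP-positive cells against 12.5, 18.6 and 10.6 in GFP-negative ones. Des read 465, 395 and 944 against 273, 145 and 786. Fibroblast and progenitor markers (6 genes on array A) summed to 46801 to 79710 in GFP-positive cells and 97582 to 121722 in GFP-negative ones. All 7 tested had negative differences, and 3 were called (6 with the replicate block, 4 without Exp106). Macrophage markers summed to 23605, 22971 and 86951 in GFP-positive cells and 129602, 84914 and 74525 in GFP-negative ones (Exp100, Exp105 and Exp106), so they were lower in GFP-positive cells in 2 experiments and higher in Exp106. Of 14 tested, 1 was called lower, and 11 without Exp106. The part of these markers in the Anxa1 difference was not tested.

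Among the other annexins, Anxa3 was 780, 1704 and 844 in GFP-positive cells and 2134, 2065 and 773 in GFP-negative ones at day 17, a difference of -0.52 ± 0.40 (adjusted p = 0.763, limma), lower in 2 of 3 experiments. Anxa8 differed by 0.17 ± 0.54 (adjusted p = 0.968) and by 0.87 ± 0.52 without Exp106 (adjusted p = 0.447). Anxa5 differed by -0.09 ± 0.18 and Anxa6 by 0.06 ± 0.31 (adjusted p = 0.942 and 0.984). The probe set 102815_at, 2354, 2728 and 3472 in GFP-positive against 1707, 2426 and 1171 in GFP-negative cells, was higher in all 3 experiments by 0.72 ± 0.35 (adjusted p = 0.51) and by 0.32 ± 0.36 without Exp106. None of these passed the test.

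At day 7 the differences of the 17 probe sets ran from -0.21 to 0.38 and none was called, as was none of all 22099 (0%), of which 327 had an unadjusted p under 0.05 by limma but none of the annexins. Anxa8 differed by 0.11 ± 0.54. Markers of other cells did differ at day 7. Macrophage markers summed to 6538 to 7528 in GFP-positive cells and 14630 to 38914 in GFP-negative ones. Skeletal muscle markers summed to 8575 to 11051 and 15228 to 21779. Without Exp106, a day 17 experiment of the same fit, 2 macrophage markers were called lower in GFP-positive cells at day 7. The part of these markers in the annexin differences was not tested. The change of the GFP difference between days was called for none of the 17, against 0.253% of all probe sets. For Anxa1 it was -0.74 ± 0.34 (adjusted p = 0.823, and 0.0715 with the replicate block) and for Anxa3 -0.51 ± 0.57 (adjusted p = 1).

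**Figure D3:**
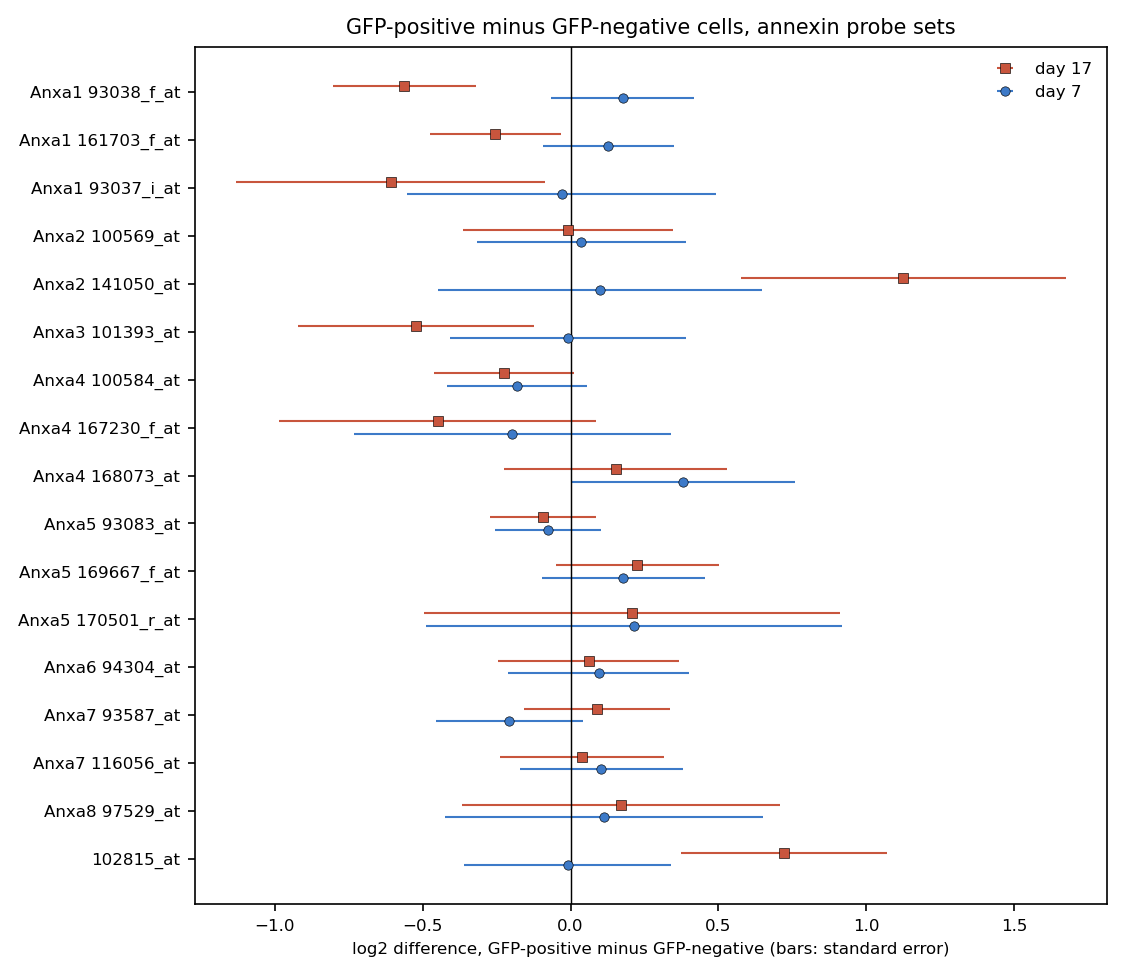
Log2 difference, GFP-positive minus GFP-negative cells, of 17 annexin probe sets at day 17 and day 7, with standard errors. At day 7 all lie between -0.21 and 0.38, and at day 17 between -0.61 and 1.13, with the 3 Anxa1 probe sets below 0.

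Unsorted cells were set against the mean of the sorted fractions of their day. At day 17 Anxa4 was 8699, 10624 and 10997 in unsorted cells, against 3752, 5557 and 6549 in GFP-positive cells and 7384, 5891 and 5041 in GFP-negative ones. The unsorted samples all lay above the sorted ones. The difference was 0.85 ± 0.19, or 1.80-fold higher in unsorted cells (adjusted p = 0.04, limma), and Anxa4 was the one called of 11 annexin probe sets, against 1.6% of all 7455. The call was narrow. It was lost when any 1 of 14 of the 18 RNA samples was left out (0.73 to 0.95 over all 18, adjusted p up to 0.129), and held without day 17 GFP-positive Exp106, day 17 GFP-negative Exp100, day 7 unsorted Exp101 or day 7 GFP-negative Exp101. With all of Exp106 left out it was 0.80 ± 0.19 (adjusted p = 0.0222).

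At day 7 Anxa4 was 6612, 8525 and 5899 in unsorted cells, against 5634, 6978 and 6475 in GFP-positive cells and 7322, 6342 and 8021 in GFP-negative ones, a difference of 0.04 ± 0.19. The change of this difference between days, 0.81 ± 0.27, had an unadjusted p of 0.00916 and an adjusted p of 1 by limma. That comparison was added after the day 17 values were seen. It called 0% of 7455 probe sets (293 at an unadjusted p under 0.05). Array A alone holds unsorted samples of every experiment, so the other Anxa4 probe sets give no value here.

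Anxa3 differed by 0.74 ± 0.41 between unsorted and sorted cells at day 17 (2545, 3799 and 961 against 780 to 1704 in GFP-positive cells and 773 to 2134 in GFP-negative ones) (adjusted p = 0.438), and by 0.99 ± 0.31 without Exp106 (adjusted p = 0.0591). Anxa8 differed by -0.86 ± 0.54 (adjusted p = 0.522), and by 0.10 ± 0.46 without Exp106, whose unsorted sample read 71.1. The other annexins on array A lay between -0.29 and 0.16. At day 7 the 11 ran from -0.25 to 0.07 and none was called, as was none of 7455 (0%, 59 at an unadjusted p under 0.05). The 16 macrophage markers summed to 176844 to 230184 in unsorted cells at day 17, against 22971 to 129602 in the sorted fractions, and to 20283 to 43935 against 6538 to 38914 at day 7. Of the 15 tested at day 17, 5 were called, all higher in unsorted cells (median 1.98), and 12 without Exp106. Their part in the Anxa4 and Anxa3 differences was not tested.

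**Figure D4:**
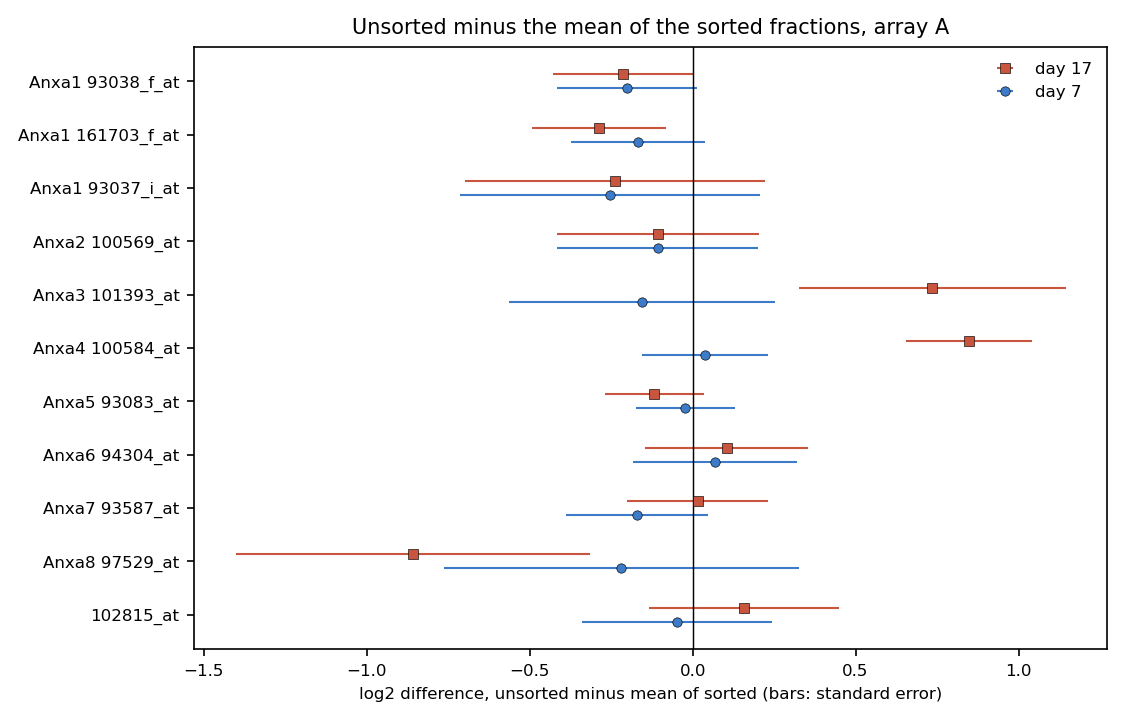
Log2 difference, unsorted cells minus the mean of the sorted fractions, of 11 annexin probe sets on array A at day 17 and day 7, with standard errors. Anxa4 (0.85) and Anxa3 (0.74) lie furthest right at day 17, and all lie between -0.25 and 0.07 at day 7.

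The proteins that annexins bind were taken from a list of 14 partners and receptors, of which 11 were tested. At day 17, 2 were called between GFP-positive and GFP-negative cells, both lower, against 1.48% of all probe sets, and the list's median was -0.16 against -0.01 over all. S100a6, a calcium-binding partner of several annexins, read 13997, 22243 and 13599 in GFP-positive cells, against 37485, 38651 and 32599 in GFP-negative cells. It fell by 1.16 ± 0.18 (adjusted p = 0.00851), without overlap and in each of the 18 fits that left out 1 sample. S100a4 read 4486, 4040 and 3137 in GFP-positive cells, against 11950, 9491 and 7028 in GFP-negative cells, and fell by 1.26 ± 0.24 (adjusted p = 0.0221). Its call was lost without day 17 GFP-positive Exp105, day 17 GFP-negative Exp100 or day 17 GFP-negative Exp105 (adjusted p up to 0.114).

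S100a10, the partner of Anxa2, read 19651, 14362 and 6992 in GFP-positive cells and 13223, 13997 and 7161 in GFP-negative cells at day 17 (0.19 ± 0.37, adjusted p = 0.943). Plat, the plasminogen activator that Anxa2 binds, read 614, 993 and 278 in GFP-positive cells, against 1583, 2768 and 3162 in GFP-negative cells. Its difference of -2.05 ± 0.45 had an adjusted p of 0.0504, and 0.0152 with the replicate block. Without Exp106 the difference was -1.40 ± 0.41. Between days S100a6 differed by -1.76 ± 0.18, S100a4 by -1.84 ± 0.24, Plat by -2.15 ± 0.45 and S100a10 by -0.75 ± 0.37 in GFP-positive cells, and by -0.56 ± 0.18, -0.70 ± 0.24, -0.08 ± 0.45 and -0.76 ± 0.37 in GFP-negative cells. S100a10 was lowest in Exp106 in every day 17 fraction, as Anxa2 100569_at was but not Anxa2 141050_at. Without Exp106 S100a10 differed by -0.33 and -0.46. At day 7, and in unsorted against sorted cells at day 17, none of the 11 was called.

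A list of 20 matrix vesicle and mineralisation genes had 15 tested. At day 17 Mgp, an inhibitor of mineralisation, was the one called between GFP fractions, against 1.48% of all. It read 3465, 2624 and 1974 in GFP-positive cells and 20901, 12582 and 13532 in GFP-negative ones, and fell by 2.53 ± 0.26 (adjusted p = 0.000684). The list's median was -0.01, equal to that of all probe sets. With the replicate block 4 were called, and not all were lower. Ibsp was among them and was higher in GFP-positive cells by 2.25 ± 0.91. Its adjusted p was 0.373 by limma, and 0.00483 with the block. Without Exp106 2 genes of the list were called, both lower. Mgp was also the one called in unsorted against sorted cells at day 17, where it rose by 0.94 ± 0.20 (adjusted p = 0.0343), a call lost without day 17 unsorted Exp100 or Exp105, day 17 GFP-positive Exp105, day 17 GFP-negative Exp105 or day 7 GFP-positive Exp103 (adjusted p up to 0.138).

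Between days the vesicle genes ran both ways beside the small day differences of Anxa5 and Anxa6. Alpl, the phosphatase of matrix vesicles, read 12001, 10856 and 6589 in GFP-positive cells at day 17, against 342, 545 and 601 at day 7, a difference of 4.21 ± 0.37. Ibsp, a mineral-binding matrix protein, differed by 6.92 ± 0.91. The phosphate carrier Slc20a1 read 1032, 1081 and 572 at day 17, against 3027, 3122 and 3838 at day 7, a difference of -1.90 ± 0.39, and Slc20a2 differed by -2.28 ± 0.44. The median of the 15 was 0.05 in GFP-positive cells and 0.18 in GFP-negative ones, against -0.06 and -0.04 over all probe sets. Phospho1, Enpp1 and Spp1 of this list were not analysed here.

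Of 17 genes for membrane repair and other membrane proteins that act with calcium or with caveolae, 15 were tested. At day 17, 2 were called between GFP fractions, both lower, against 1.48% of all, and the list's median was -0.66 against -0.01. Cav1, the coat protein of caveolae, read 564, 1137 and 1182 in GFP-positive cells and 3740, 3060 and 2417 in GFP-negative ones and fell by 1.69 ± 0.31 (adjusted p = 0.0184). Cavin1, which shapes the same pits, read 2772, 2713 and 3818 in GFP-positive cells and 5819, 5592 and 7307 in GFP-negative ones and fell by 1.01 ± 0.21 (adjusted p = 0.036). The call of Cav1 was lost without day 17 GFP-positive Exp100, day 17 GFP-negative Exp100 or day 17 GFP-negative Exp105 (adjusted p up to 0.102). That of Cavin1 held in 8 of the 18 fits that left out 1 sample (adjusted p up to 0.144). Without Exp106 4 genes of the list were called and with the replicate block 5, all lower. Between days Cav1 differed by -2.81 ± 0.31 and Cav2 by -2.05 ± 0.22 in GFP-positive cells. The smooth muscle, fibroblast and macrophage markers given beside Anxa1 differed between these fractions too, with Myh11 and Des in the other direction. Mgp is itself 1 of the fibroblast and progenitor markers and 1 of their 3 calls. The part of these markers in the differences of S100a6, S100a4, Mgp, Cav1 and Cavin1 was not tested. Of 3 further annexins, Anxa9, Anxa10 and Anxa13, only Anxa9 passed the filter, and it differed by -0.11 ± 0.30 between GFP fractions at day 17.

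**Figure D5:**
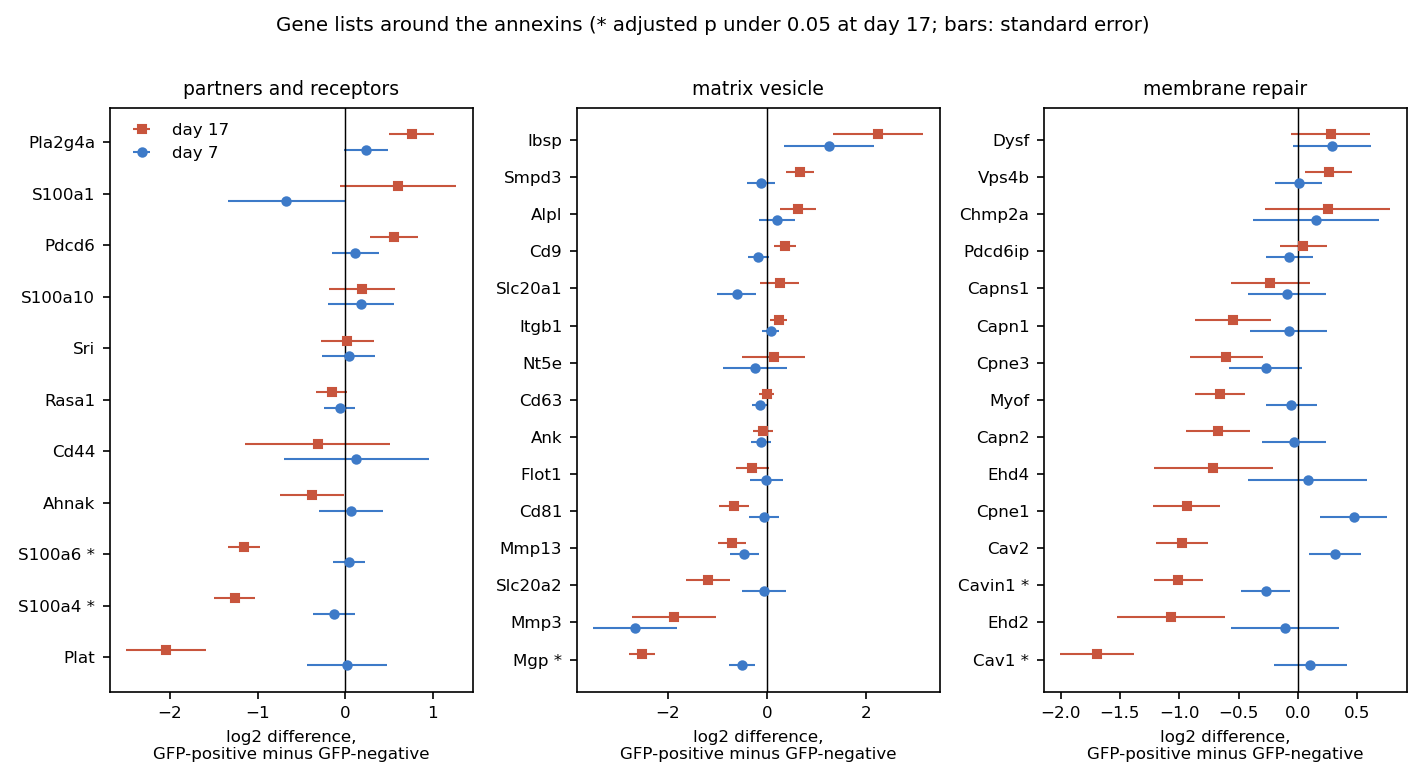
Log2 difference, GFP-positive minus GFP-negative cells, at day 17 and day 7 for the tested genes of 3 lists around the annexins, with standard errors. Stars mark genes with an adjusted p under 0.05 at day 17: S100a6, S100a4, Mgp, Cav1 and Cavin1, all lower in GFP-positive cells.

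The genes whose log2 values ran most like each annexin over the 12 sorted samples were found as a description, since the samples share the split between days. For Anxa8 they were Crabp2 (r = 0.98, and 0.99 over the 10 samples without Exp106), Mt1 (0.97 and 0.99), Rnf41 (0.95 and 0.94), Gcsh (0.95 and 0.95) and Rnf111 (0.93 and 0.92). For Anxa3 they were Ctsl (0.98 and 0.97), Ube2q1 (0.98 and 0.97) and Glipr2 (0.97 and 0.97), and for Anxa1 Pon3 (0.98 and 0.96), Csrp2 (0.97 and 0.93) and Snx6 (0.97 and 0.94). Those of Anxa2, Rangrf, Tti1 and Ndufaf5, had r of 0.99 each with Exp106 and 0.57, 0.53 and 0.49 without it. The nearest to Anxa5 was Mplkip (0.96 and 0.82), to Anxa6 Ip6k2 (0.94 and 0.89), to Anxa4 Mmd (0.90 and 0.91) and to Anxa7 Zfand2a (0.82 and 0.89). Among the annexins themselves, Anxa1 and Anxa2 correlated at 0.73 over the 12 samples and at 0.13 without Exp106.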

How the data were processed

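RNA of 18 samples was measured on 44 Affymetrix arrays of 3 types. The values are array intensities as deposited by the authors; their scaling, background correction and probe summary are not given in the sources used here. Per array, the deposited median was 369 to 748 on A, 731 to 964 on B and 495 to 815 on C. Intensities were raised by a pseudocount of 32, taken to log2 and quantile normalised within an array type, so folds understate changes of dim probe sets. Probe sets exceeding the median of the array on 3 or more arrays of a fit were tested. limma 3.58.1 (R 4.3.3, statmod 1.5.0; lmFit and eBayes with a variance trend, per array type) fitted all groups together, with Benjamini-Hochberg adjustment over all probe sets of a comparison and a threshold of 0.05. Scripts were tested on simulated data.

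The sorted comparisons used 12 samples (22099 probe sets) and those with unsorted cells 18 samples on array A (7455). Samples were grouped by their labels. The fractions share experiment names, and the deviations of GFP-positive and GFP-negative samples from their group means correlated within every experiment (0.259 to 0.687 on array A). For these fractions, counts with the replicate block are therefore printed, with blocked values for some of the genes whose call changed. With the unsorted samples added, the lowest correlation was 0.478, 0.56 and 0.687 in Exp100, Exp105 and Exp106 of day 17, and 0.259 in Exp99. It was -0.102 in Exp101 and -0.252 in Exp103, both of day 7, so the names were not taken to pair unsorted samples. A gene was represented by a probe set naming it alone, preferring array A to B and B to C, then the brighter one. All annexin probe sets are named; of the other lists, those that passed a test (up to 4 per list and comparison). Alpl, Ibsp, Slc20a1, Slc20a2, S100a10, Plat and Cav2 were named after their values were seen. The members and lists were chosen with earlier results of these data known. Gene names are those of the platform annotation: 29131 probe sets have 1 gene, 724 several and 6846 none. Alternatives were the pseudocount, the filter, no normalisation, the groups fitted, the variance trend, experiment as a block, Exp106 or each sample left out, and array types fitted together.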

Additional observations from a re-analysis of the deposited data

How the results depend on the processing

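The 27 day differences of the annexins were recomputed under 753 alternatives. In 8 of the 27 the sign changed at least once: Anxa5 and Anxa6 in all fractions, Anxa7 in unsorted cells and 102815_at in GFP-negative cells. Those of Anxa8 and Anxa3 stayed below 0 in every fraction, but their size depended on the setting (Anxa8 in unsorted cells -3.92 to -2.68, Anxa3 in unsorted cells -2.11 to -1.13), and that of Anxa2 in GFP-positive cells ran from -0.70 to -0.02. Of the annexin differences with a test, only 14 were recomputed, and none of them was of Anxa2 or Anxa7. Of these 14, 6 changed sign at least once, 18 times among 404 alternatives, and none of these 6 was called. With the values as deposited, the GFP difference was -0.0467 for Anxa8 at day 7, and -0.0737 for Anxa8 and -0.00776 for Anxa6 at day 17. Without Exp106 it was 0.16 for Anxa5 at day 17, and the unsorted difference of Anxa8 at day 17 was 0.10. Leaving out 1 sample each time gave GFP differences of -0.39 to 0.48 for Anxa8 at day 7, and at day 17 -0.22 to 0.13 for Anxa5, -0.20 to 0.36 for Anxa6, -0.14 to 0.72 for Anxa8 and -0.13 to 0.61 for S100a10, and an unsorted difference of -0.11 to 0.15 for Anxa4 at day 7. The cause was not tested.

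The count of annexin probe sets called between GFP fractions at day 17 was 0, and 1 with experiment as a fixed or as a random replicate block (Anxa1). The count in unsorted cells at day 17 was 1. It was 2 with the fixed replicate block, 0 without the filter, 0 with the values as deposited, 0 with only the groups compared, 0 without the variance trend, and 0 to 1 with 1 sample left out. Fitting only the groups compared leaves fewer samples, and it also ended the calls of S100a6, S100a4, Mgp, Cav1 and Cavin1. Over all probe sets the replicate block called 1111 against 327 between GFP fractions at day 17, 251 against 56 for the change of that difference between days, and 920 (12.3%) against 119 in unsorted cells at day 17. Unsorted samples share the experiment name with the sorted ones. With them added, the lowest correlation of deviations was 0.478, 0.56 and 0.687 in the day 17 experiments Exp100, Exp105 and Exp106. At day 7 it was -0.102 in Exp101 and -0.252 in Exp103. In unsorted against sorted cells at day 17 the block gave Anxa3 an adjusted p of 0.0479 by limma. The 3 samples of a group, and dim probe sets such as that of Anxa8 at day 17, limit what these arrays can show.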
